A study of Homo sapiens with 12 samples.

Results

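The glycolysis and hypoxia response genes are 36 genes picked by symbol from a table of 58884 genes, each matching 1 row. They comprise 19 glycolytic enzymes, counting the lactate dehydrogenases and the PFKFB regulators, and 17 other genes linked to the response to low oxygen, HIF1A itself among them. RNA was sequenced from KYSE70, an established human esophageal squamous cell carcinoma line, and gave 12 libraries. Cells of 4 libraries received 10 µM pyrimethamine, an antifolate, for 72 h. Cells of 4 others received 20 nM mitoxantrone, a topoisomerase II poison that intercalates into DNA, for 72 h, and 4 control libraries came from untreated cells. All cells grew in RPMI1640 with serum at 5% CO2 in air, and the labels name no group in low oxygen. Both drugs are described in the title as inhibiting the transcription factor NRF2. Neither a vehicle for the controls nor separate cultures behind replicates are stated in the labels, so every p-value measures only the spread between these libraries, which may be technical.

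Glycolysis breaks glucose down to pyruvate in the cytosol, and lactate dehydrogenase then turns pyruvate into lactate, which leaves the cell through monocarboxylate transporters. In low oxygen the transcription factor HIF-1, made of the HIF1A and ARNT proteins, is no longer hydroxylated by the EGLN prolyl hydroxylases and escapes destruction by VHL. It then binds short DNA elements with the core letters ACGTG or GCGTG and raises glucose transporters, most glycolytic enzymes, the PDK kinases that keep pyruvate out of mitochondria, and secreted factors such as VEGFA. Many of these genes also answer to other factors, among them MYC, NRF2 and ATF4, and many tumor cells keep them high with oxygen present.

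RefSeq promoter windows of GRCh38.p14, which reach from 250 bases before to 50 bases after a start, were matched for 31 of the 36 genes. The letters ACGTG were searched on both strands, where CACGTG holds a match on each strand that overlap. They stood in 12 of 19 enzymes and 7 of 12 other hypoxia genes with a window. Counted by window, since several genes have more than 1 start, 39.7% of 58 windows held them, against 21.4% of all 35116 windows. Some windows of a gene overlap, so a single site can count more than once. A share by gene over all genes was not computed. The sequences below show 3 genes that rose in at least 1 comparison with 3 or more matches (LDHA, PGK1, ANKRD37), 1 that fell under mitoxantrone with as many (ALDOC), and the gene with the largest change under pyrimethamine among members tested, which holds none (EGLN3). Each is written 5′ to 3′ on the gene's strand, with every match to ACGTG or its reverse complement in capitals. The windows lie at chr11:18394313-18394612, plus strand for LDHA, at chrX:78103998-78104297, plus strand for PGK1 and at chr4:185396591-185396890, plus strand for ANKRD37. Those of the remaining pair lie at chr17:28576846-28577145, minus strand for ALDOC and at chr14:33951025-33951324, minus strand for EGLN3. A match describes letters and says nothing of binding, and a window with no match leaves the rest of the gene unsearched. The other core named above, GCGTG, was not searched for and is not marked, so the counts leave it out.
LDHA: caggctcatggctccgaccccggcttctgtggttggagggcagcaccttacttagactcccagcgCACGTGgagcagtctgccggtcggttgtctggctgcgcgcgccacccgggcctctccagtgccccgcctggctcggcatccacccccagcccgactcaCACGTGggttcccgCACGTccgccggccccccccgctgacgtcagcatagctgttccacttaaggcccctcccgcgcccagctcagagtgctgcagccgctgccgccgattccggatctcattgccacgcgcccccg
PGK1: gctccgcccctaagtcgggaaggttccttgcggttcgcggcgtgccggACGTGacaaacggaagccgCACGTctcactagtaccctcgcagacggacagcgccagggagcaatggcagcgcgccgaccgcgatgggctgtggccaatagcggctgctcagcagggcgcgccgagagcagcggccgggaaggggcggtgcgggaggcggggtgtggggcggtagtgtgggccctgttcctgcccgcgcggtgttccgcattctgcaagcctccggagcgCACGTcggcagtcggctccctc
ANKRD37: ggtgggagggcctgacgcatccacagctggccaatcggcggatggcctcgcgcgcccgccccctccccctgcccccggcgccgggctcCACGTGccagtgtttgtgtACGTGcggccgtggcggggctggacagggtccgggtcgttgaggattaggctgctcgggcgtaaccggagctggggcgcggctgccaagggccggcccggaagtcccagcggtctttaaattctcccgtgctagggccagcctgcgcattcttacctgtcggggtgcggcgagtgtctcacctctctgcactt
ALDOC: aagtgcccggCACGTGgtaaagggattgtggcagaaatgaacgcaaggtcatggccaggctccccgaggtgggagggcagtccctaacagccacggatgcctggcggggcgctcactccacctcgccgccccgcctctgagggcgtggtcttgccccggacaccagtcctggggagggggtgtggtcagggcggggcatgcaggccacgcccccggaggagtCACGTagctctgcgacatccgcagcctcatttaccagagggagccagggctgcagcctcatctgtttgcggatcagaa
EGLN3: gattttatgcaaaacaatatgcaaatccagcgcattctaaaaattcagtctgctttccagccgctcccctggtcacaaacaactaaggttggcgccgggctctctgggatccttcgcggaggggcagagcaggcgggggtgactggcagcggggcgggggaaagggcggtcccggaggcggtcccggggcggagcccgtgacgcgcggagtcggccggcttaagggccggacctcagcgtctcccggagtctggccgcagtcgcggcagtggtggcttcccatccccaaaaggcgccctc

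The values are normalized counts, that is whole reads scaled by the authors with a single factor for each library, and the libraries held 47465335 to 94516756 reads. Of all genes, 16950 reached 10 normalized counts in 4 or more libraries and were tested with limma on log2(value + 1). A gene was called at a Benjamini-Hochberg adjusted p under 0.05 over all of these genes. The filter kept all 19 enzymes and 15 of the 17 other hypoxia genes, so 34 of 36, and left out CA9 and CA12. Values given after rose, fell or changed are log2 changes, with the standard error after ±. For each gene that error and its p-value rest on a spread pooled over all 12 libraries, which assumes the same spread in every group. The squamous marker KRT5 stood at 206349 to 279788 normalized counts and TP63 at 12234 to 22497 over the 12 libraries, and KRT6A at 42760.4 to 104226. SOX2 stood at 6279 to 20320.5 and DSG3 at 11627 to 25091. The squamous markers KRT14, at 101 to 187, and KRT17, at 425 to 862, were far lower. Of the simple epithelium markers, KRT8 stood at 43139 to 66802, KRT18 at 7559.5 to 16053 and EPCAM at 18109 to 24288. Marker lists of fibroblasts, leukocytes, endothelium and red blood cells stayed at or under 29.4 normalized counts for each gene except for COL1A1, at 3872 to 15353, and VWF, at 174 to 1151, both lowest under mitoxantrone. Transcripts of the mitochondrial genome took 6.83% to 8.33% of reads under pyrimethamine, 3.23% to 3.89% under mitoxantrone and 6.16% to 6.69% in the control. The part of these shares and markers in the changes below was not tested.

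Levels of the enzymes spanned a wide range. Exon length here is that of all annotated exons of a gene joined, which can exceed the transcript expressed. Per kilobase of exon, GAPDH led in the control with 79914 ± 1511 normalized counts, followed by ENO1 with 30494 ± 939 and PKM with 25342 ± 869 (SD, n = 4). TPI1, PGAM1, LDHA and PGK1 came next, the last of them with 7981 ± 275. HK1 with 2297 ± 37.7 and GPI with 2229 ± 74.5 were neighbours on this scale that did not differ beyond their spread, and PFKFB4 was lowest with 32.8 ± 1.4. In counts not divided by length, GPI with 23803 stood above HK1 with 14459. Where a step has paralogs, 1 of them dominated per kilobase: LDHA over LDHB (352 ± 22.0), ENO1 over ENO2 (1430.1 ± 38.0) and PFKP over PFKM (1607 ± 32.7) and PFKL (792 ± 25.2). ALDOA, in most tissues an abundant aldolase, stood at only 172 ± 13.3 and below ALDOC (611 ± 22.9). In GENCODE 29, 42.3% of ALDOA exon sequence overlaps another protein-coding gene on the same strand (AC093512.2, mean 85 normalized counts), and 33.4% of LDHB exon sequence overlaps AC010197.2. How reads over such overlaps were counted is not stated, and the part of it in these levels was not tested. GAPDH, PGAM1, LDHA, PGK1, TPI1, ENO1 and PKM also have processed pseudogenes that can share reads.

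Among the other hypoxia genes, the glucose transporter gene SLC2A1 was highest per kilobase in the control with 5726 ± 173 normalized counts, followed by HIF1A with 3944 ± 63.5. ADM (781 ± 9.4), BNIP3L (775 ± 27.8) and BNIP3 (748 ± 17.9) followed each other closely, ADM and BNIP3L within their spread, and so did EGLN3 (439 ± 6.06), NDRG1 (429 ± 15.8) and PDK3 (416 ± 30.9). VEGFA (77.2 ± 6.94), PDK1 and ANKRD37 were low per kilobase, and SLC16A3, a lactate exporter gene often raised by hypoxia, reached only 9.14 ± 1.75. The joined exons of VEGFA and PDK1 are long, with 14431 and 14883 bases, which lowers their values per kilobase. CA9, the carbonic anhydrase gene widely used as a hypoxia marker, had 1 read in all 12 libraries, and a library with 0 reads allows up to 3. CA12, its relative on the cell surface, had 4, 1, 2 and 2 reads under pyrimethamine, 0, 0, 0 and 2 under mitoxantrone, and 14, 8, 16 and 7 in the control. Per normalized read, CA12 was 4.68-fold lower under pyrimethamine (95% counting interval 2.26 to 10.9) and 20.6-fold lower under mitoxantrone (5.38 to 175) than in the control. Such intervals cover counting error only.

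The 19 enzymes took 1.56% ± 0.0442 of all reads under pyrimethamine, 1.8% ± 0.0357 under mitoxantrone and 1.53% ± 0.0303 in the control (SD, n = 4 each). The libraries of mitoxantrone lay between 1.78% and 1.85% and did not overlap the others, while pyrimethamine (1.52% to 1.62%) and control (1.49% to 1.56%) overlapped. The 17 other hypoxia genes took 0.169% ± 0.00364 under pyrimethamine, 0.117% ± 0.00449 under mitoxantrone and 0.157% ± 0.00379 in the control. Their share was thus lowest in the group where that of the enzymes was highest. Such shares mostly reflect the most abundant genes. GAPDH, PKM, ENO1 and LDHA held 25.0%, 22.8%, 16.9% and 9.29% of the enzyme counts in the control. Among the other hypoxia genes SLC2A1, HIF1A, SLC16A1 and SLC2A3 had the highest counts in each group. With mitochondrial transcripts left out of the total, the enzymes took 1.69% under pyrimethamine, 1.87% under mitoxantrone and 1.63% in the control.

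Under pyrimethamine the enzymes went both ways. The phosphofructokinases and HK1 fell, HK2, GPI, TPI1, PGK1, PKM and LDHA rose, PFKFB3 and ENO2 fell as well, and no enzyme changed by 2-fold. Both drugs were set against the same 4 control libraries, and in bulk RNA a change in every cell and a change in the share of cells cannot be told apart. Of 19 enzymes, 6 were higher, 6 lower and 7 not called, while 26.4% of all genes tested were higher and 26.9% lower. Their median log2 change was 0.054, and that of all genes was 0.0018. The split was 4 higher and 7 lower under quantile normalization, and 5 higher and 8 lower with libraries rescaled to the same total.

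Hexokinases trap glucose in the cell as glucose 6-phosphate. HK1 stood at 11744, 11794, 11576 and 11254 normalized counts under pyrimethamine and at 14588, 14728, 14235 and 14285 in the control. Each pyrimethamine library was below each control library, with a log2 change of -0.32 ± 0.042 (limma adjusted p = 1.59e-06). HK2, the hypoxia-inducible form, stood at 5869, 5931, 5704 and 5842 under pyrimethamine and 4936, 5077, 5153 and 4855 in the control, again with no overlap but in the opposite direction, at 0.22 ± 0.044 (limma adjusted p = 0.000218). GPI, the isomerase of the next step, rose by 0.16, or 0.099 at the same total.

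Phosphofructokinase is the main control point of the pathway, and its 3 subunit genes all fell. PFKM stood at 9441, 9218, 8612 and 8901 normalized counts under pyrimethamine and at 11605, 11663, 11660.5 and 12119 in the control, a log2 change of -0.38 ± 0.0356 (limma adjusted p = 1.35e-08). PFKL changed by -0.25 and PFKP by -0.20, each without overlap between groups. PFKFB3, which makes fructose 2,6-bisphosphate, the activator of phosphofructokinase, fell with -0.13 (limma adjusted p = 0.00458). Its relative PFKFB4, at 172 to 208 under pyrimethamine and 189.9 to 211 in the control, was not called (-0.06).

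Further down the pathway, PGK1, which makes the first ATP, rose by 0.24 ± 0.04 (limma adjusted p = 3.53e-05), or 0.11 under quantile normalization. PKM, the pyruvate kinase gene, had a log2 change of 0.19 ± 0.0459 (limma adjusted p = 0.00124), which turned to -0.037 and was not called under quantile normalization. TPI1, the triosephosphate isomerase gene, had 0.10 ± 0.0375 (limma adjusted p = 0.0246). That call was lost with every library at the same total (0.046, limma adjusted p = 0.296), by quantile normalization (0.0087, adjusted p = 0.842), and without pyrimethamine replicate 1 (adjusted p = 0.0892), control replicate 1 (0.0746) or control replicate 3 (0.0589). GAPDH (-0.057), PGAM1 (0.057), ALDOA (0.054), ALDOC (-0.13) and ENO1 (0.079) were not called. ALDOC was called lower at the same total (-0.19, limma adjusted p = 0.0190) and with only the 8 libraries compared (limma adjusted p = 0.0182). GAPDH, often used as a constant standard, was called lower once libraries were brought to the same total (-0.11) and also by quantile normalization (-0.31).

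The largest enzyme change under pyrimethamine was the fall of ENO2, an enolase gene known from neurons. ENO2 stood at 4113, 3908, 3880.1 and 3885 normalized counts under pyrimethamine and 6224, 6139, 5887 and 6239 in the control. The groups did not overlap, and the log2 change was -0.63 ± 0.0393 (limma adjusted p = 2.80e-11). LDHA, which makes lactate (ENSG00000134333, GRCh38 chr11:18394388-18408425, plus strand), showed the largest rise among the enzymes, with 114930, 108651, 108870 and 114659 under pyrimethamine and 85154, 89612, 91115 and 88648 in the control. All pyrimethamine libraries exceeded all controls, with 0.33 ± 0.0403 (limma adjusted p = 4.75e-07), which shrank to 0.076 (adjusted p = 0.0499) under quantile normalization. LDHB, whose product favors the way back to pyruvate, was not called (0.097).

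**Figure D1:**
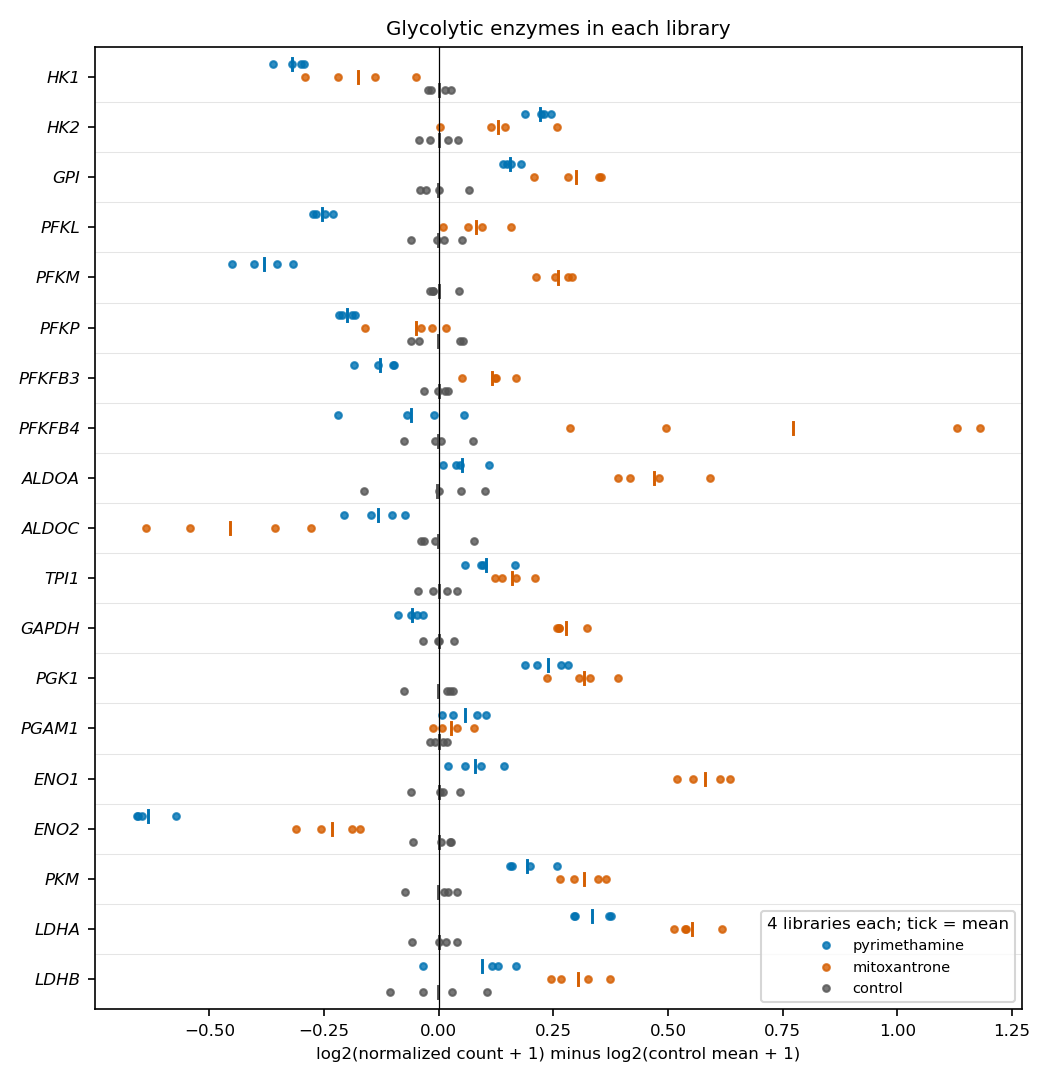
The 19 glycolytic enzymes in pathway order. Each point is 1 library (pyrimethamine, mitoxantrone and control, 4 each), placed by its log2(normalized count + 1) relative to the control mean, and ticks are group means; ENO2 and the PFK genes of pyrimethamine lie left of 0, while ENO1 and LDHA of mitoxantrone lie at about 0.58 and 0.55.

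Under mitoxantrone most enzymes were higher than in the control. Of 19 enzymes, 13 were higher, 3 (HK1, ALDOC and ENO2) lower and 3 (PFKL, PFKP and PGAM1) not called, while 33.5% of all genes tested were higher and 35.8% lower. Their median log2 change was 0.26, and that of all genes was -0.0080. Under quantile normalization, which pulls the most abundant genes of each library to 1 common level, 9 enzymes were higher and 6 lower. Rescaling libraries to the same total left 10 enzymes higher and 4 lower, and over all genes gave 4420 higher and 7210 lower, against 5681 and 6064 without it.

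ENO1, the main enolase gene, stood at 230573, 246225, 249955 and 236412 normalized counts under mitoxantrone and 154269, 166254, 161195 and 161832 in the control. The groups lay far apart, with a log2 change of 0.58 ± 0.0447 (limma adjusted p = 2.09e-10), or 0.38 under quantile normalization. LDHA stood at 128554, 126435, 136008 and 128842 under mitoxantrone, with the control values given above. Its log2 change was 0.55 ± 0.0403 (limma adjusted p = 9.20e-11), or 0.21 under quantile normalization. GAPDH, which yields the first NADH of the pathway, stood at 285495, 285883, 297881 and 285000 under mitoxantrone and 232765, 243785, 238417 and 237926 in the control. Here the groups did not overlap either, and GAPDH changed by 0.28 ± 0.0422 (limma adjusted p = 5.92e-06), or 0.18 with libraries rescaled to the same total.

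Several other enzymes were higher too. PGK1 rose by 0.32, PKM by 0.32 and GPI by 0.30 (0.17 under quantile normalization), each without overlap with the control. PGK1 fell short of a call under quantile normalization (0.050, limma adjusted p = 0.166). TPI1 rose by 0.16, but was called lower under quantile normalization (-0.14) and not called with libraries rescaled to the same total (0.059, limma adjusted p = 0.153). ALDOA rose by 0.47 and LDHB by 0.30, both subject to the exon overlaps given above. ALDOC, the aldolase gene known from brain, fell to 1149.7 to 1474 normalized counts under mitoxantrone, against 1742 to 1888 in the control, a log2 change of -0.45 ± 0.0644 (limma adjusted p = 2.22e-06).

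At the top of the pathway, HK1 fell with -0.17, or -0.28 at the same total, and HK2 rose by 0.13 although its groups overlapped. The HK2 call was lost with every library at the same total (0.029, limma adjusted p = 0.563), by quantile normalization (adjusted p = 0.128) and without mitoxantrone replicate 2 (adjusted p = 0.0677). PFKM stood at 14299.9, 14384, 14021 and 13617 normalized counts under mitoxantrone, all above the controls, with 0.26 ± 0.0356 (limma adjusted p = 1.42e-06), or 0.16 at the same total. PFKL (0.082) and PFKP (-0.049) were not called. In some alternatives PFKL was called higher, among them edgeR (adjusted p = 0.0423) and DESeq2 (adjusted p = 0.0447). PFKP was called lower at the same total (-0.15, limma adjusted p = 0.00214) and under quantile normalization (-0.16, limma adjusted p = 0.000339). PFKFB3 rose by 0.12, a call lost under both rescalings of libraries, with 0.015 at the same total and 0.050 under quantile normalization.

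PFKFB4 had the largest fold among the enzymes. It stood at 454, 244, 439 and 282 normalized counts under mitoxantrone and 189.9, 201, 211 and 199 in the control. Mitoxantrone replicates 1 and 3 were well above replicates 2 and 4, but all exceeded every control. The log2 change was 0.77 ± 0.155 (limma adjusted p = 0.000146), and 0.64 to 0.94 as single libraries were left out. ENO2 fell under mitoxantrone too, to 4932 to 5435, with -0.23 ± 0.0393 (limma adjusted p = 2.16e-05).

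Genes with the same role were set against each other as a log2 ratio within each library, in which the library factor cancels. Quantile normalization does not cancel in such a ratio, and the pairs were not tried under it. Of 13 pairs fixed for this, 12 had both genes tested, and 29 of the 36 tests over 3 comparisons had an adjusted p under 0.05. Each of these 29 had the two-sided exact permutation p of 0.0286 that is the smallest 70 arrangements can give, with an adjusted p of 0.0355. Pairs of other genes were not tested, so the count is not particular to genes with the same role. Single genes were called higher and lower in 26.4% and 26.9% of cases under pyrimethamine and 33.5% and 35.8% under mitoxantrone. Between the drugs these shares were 36.9% and 39.5%. They come from limma on single genes, an unlike test, and so give no background for calls of ratios. HK2 gained on HK1 by 0.54 under pyrimethamine and 0.30 under mitoxantrone. ENO2 lost against ENO1 by -0.71 under pyrimethamine and -0.81 under mitoxantrone, and LDHB against LDHA by -0.24 and -0.25 in the same order. Under quantile normalization LDHA itself rose by 0.076 under pyrimethamine and 0.21 under mitoxantrone, in place of 0.33 and 0.55. The ratio of EGLN3 to EGLN1 differed by 0.81 under pyrimethamine and -0.99 under mitoxantrone, and that of PDK3 to PDK1 by 0.33 and -0.54. BNIP3L gained on BNIP3 by 0.62 under pyrimethamine, whereas under mitoxantrone the ratio differed by 0.022 (exact permutation p = 0.600, adjusted p = 0.635).

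**Figure D2:**
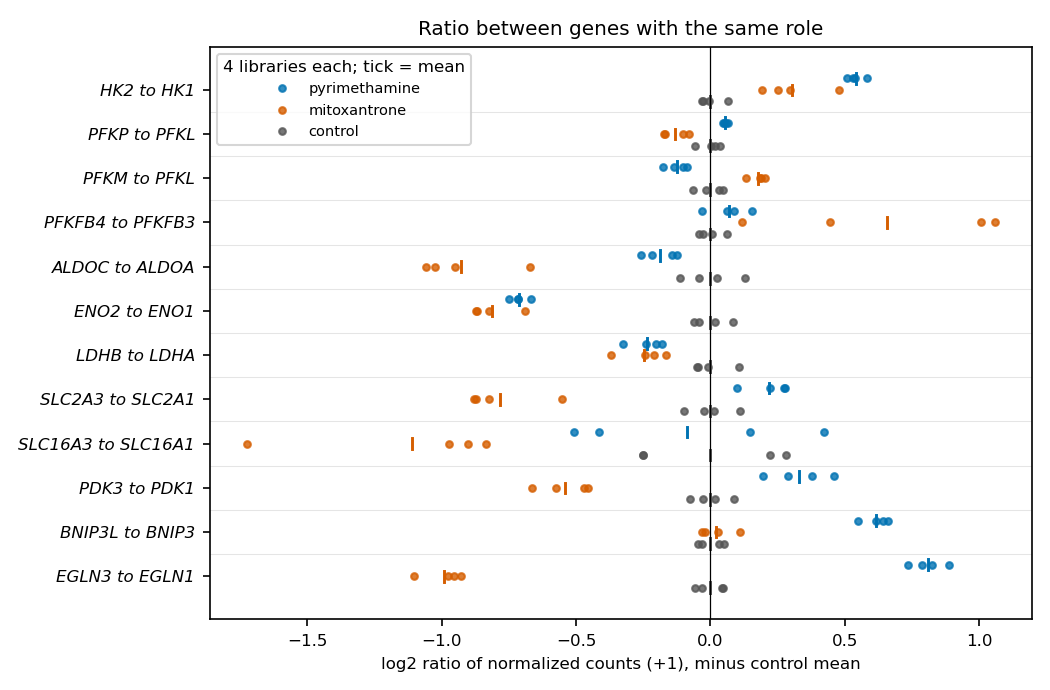
Log2 ratio between genes with the same role in each library, relative to the control mean (pyrimethamine, mitoxantrone and control, 4 libraries each; ticks are means). The EGLN3 to EGLN1 ratio lies at about 0.81 in pyrimethamine libraries and -0.99 in mitoxantrone libraries.

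Outside the enzymes, EGLN3, BNIP3L, NDRG1, ANKRD37, SLC16A1, ADM and EGLN1 were higher under pyrimethamine, and VEGFA was lower. Of 15 genes tested, 7 were higher, 3 (SLC2A1, PDK1 and VEGFA) lower and 5 (SLC2A3, SLC16A3, PDK3, BNIP3 and HIF1A) not called. The median log2 change of the 15 was 0.30. Under mitoxantrone only VEGFA and PDK1 were higher, 9 were lower and 4 (BNIP3, BNIP3L, EGLN1 and ANKRD37) not called, with a median of -0.19. Called higher and lower were 26.4% and 26.9% of all genes under pyrimethamine and 33.5% and 35.8% under mitoxantrone.

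EGLN3 and EGLN1 encode prolyl hydroxylases that mark HIF for destruction, and both genes are themselves HIF targets. EGLN3 (ENSG00000129521, GRCh38 chr14:33924231-34462774, minus strand) stood at 7017, 7170.0, 7259 and 6396 normalized counts under pyrimethamine, 1864, 1428, 1701 and 1669 under mitoxantrone and 3178, 3215, 3273 and 3264 in the control. The 3 groups did not overlap, with pyrimethamine highest and mitoxantrone lowest. EGLN3 rose 2.15-fold under pyrimethamine, a log2 change of 1.10 ± 0.0593 (limma adjusted p = 3.41e-12), and fell under mitoxantrone with -0.96 ± 0.0593 (limma adjusted p = 5.92e-12). EGLN1 rose by 0.30 ± 0.0436 (limma adjusted p = 7.03e-06) under pyrimethamine and was not called under mitoxantrone (0.028). HIF1A itself, whose product is controlled mainly at the protein level, was not called under pyrimethamine (-0.054), although rescaling libraries to the same total made it lower (-0.11, limma adjusted p = 0.00904). Under mitoxantrone HIF1A stood at 16700.3, 15920.2, 16355 and 16242, all below the control values of 20596, 20601, 19988 and 20084. The log2 change was -0.32 ± 0.0325 (limma adjusted p = 1.95e-08).

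NDRG1, a stress and differentiation gene induced by hypoxia and by iron depletion, stood at 7027, 6895, 6813 and 6880.5 normalized counts under pyrimethamine, 2514, 1576, 2522 and 1563 under mitoxantrone and 4074, 4204, 4152 and 4434 in the control. Again pyrimethamine libraries were highest and mitoxantrone libraries lowest, and mitoxantrone replicates 1 and 3 lay above replicates 2 and 4. NDRG1 changed by 0.71 ± 0.112 (limma adjusted p = 1.48e-05) under pyrimethamine and by -1.08 ± 0.112 (limma adjusted p = 2.13e-08) under mitoxantrone. The pooled error is the same for both drugs, although the SD was 89.3 under pyrimethamine, 548 under mitoxantrone and 155 in the control. ANKRD37, a small ankyrin repeat gene induced by HIF, rose by 0.56 ± 0.158 (limma adjusted p = 0.00499) under pyrimethamine and was not called under mitoxantrone (-0.043). Of its exon sequence, 35.2% overlaps UFSP2 on the opposite strand (mean 1184 normalized counts), and the strand setting of the counting is not stated.

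BNIP3 and BNIP3L encode mitophagy receptors of the outer mitochondrial membrane. BNIP3L stood at 5296, 5408, 5586 and 5586 normalized counts under pyrimethamine, 3608, 2955, 3879 and 3456 under mitoxantrone and 3493, 3311, 3203 and 3345 in the control. Pyrimethamine stood clear of the other groups, which overlapped, with 0.71 ± 0.058 (limma adjusted p = 1.66e-09) for pyrimethamine. Without mitoxantrone replicate 2, BNIP3L was called higher under mitoxantrone (0.13, limma adjusted p = 0.0185), against 0.052 with all libraries. BNIP3 was at 4213 to 4316, 3609 to 4366 and 3868 to 4087 in the same order and was not called for either drug. With only the 8 libraries compared, BNIP3 was called higher under pyrimethamine (0.095, limma adjusted p = 0.0221).

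VEGFA, the angiogenic growth factor (ENSG00000112715, GRCh38 chr6:43770184-43786487, plus strand), went the other way from EGLN3 and NDRG1. It stood at 671, 706, 659 and 622 normalized counts under pyrimethamine, 2958, 2421, 2526 and 2399 under mitoxantrone and 1114, 1191, 973 and 1179 in the control. Groups did not overlap, with mitoxantrone highest. The log2 change was -0.74 ± 0.0718 (limma adjusted p = 2.13e-08) for pyrimethamine and 1.21 ± 0.0718 (limma adjusted p = 3.29e-12) for mitoxantrone, 2.31-fold higher. ADM, encoding the vasodilator peptide adrenomedullin, stood at 2739 to 2939.5 under pyrimethamine, 1713 to 2360.1 under mitoxantrone and 2102 to 2158 in the control. It rose under pyrimethamine by 0.43 ± 0.0705 (limma adjusted p = 2.24e-05). Its call under mitoxantrone (-0.16, adjusted p = 0.0477) was lost in 16 of 23 alternatives, among them edgeR (adjusted p = 0.0697) and DESeq2 (0.0730), and was -0.27 without mitoxantrone replicate 1.

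The 4 glucose and lactate transporter genes among the members were all lower under mitoxantrone, while of 9 further transport genes, given below, 4 were higher and 3 lower. Of all genes tested, 33.5% were higher and 35.8% lower under mitoxantrone. SLC2A3, the high-affinity glucose transporter gene, stood at 12151, 12379, 12099 and 12073 normalized counts under pyrimethamine, 6504, 5599, 5326 and 5318 under mitoxantrone and 11675, 12239, 12173 and 10950.3 in the control. Mitoxantrone was far below both other groups, which overlapped, with -1.05 ± 0.0515 (limma adjusted p = 1.47e-13). SLC2A1, the main glucose transporter gene, fell with -0.17 under pyrimethamine and -0.27 under mitoxantrone (-0.42 under quantile normalization), with pyrimethamine overlapping the control. SLC16A1, which carries lactate and other monocarboxylates, stood at 18427, 17249, 16771 and 18191 under pyrimethamine, 10071, 10989, 10055 and 9899 under mitoxantrone and 13585, 13476, 13082 and 11920.0 in the control. The control lay between the drugs without overlap, with 0.44 ± 0.0451 (limma adjusted p = 4.78e-08) for pyrimethamine and -0.34 ± 0.0451 (limma adjusted p = 7.71e-07) for mitoxantrone. SLC16A3 was low throughout, at 128, 80.8, 141 and 79.9 under pyrimethamine, 33.1, 34.3, 34.6 and 17.9 under mitoxantrone and 71.1, 102, 68.5 and 87.0 in the control. All mitoxantrone values lay below the controls (-1.45 ± 0.242, limma adjusted p = 1.80e-05), and pyrimethamine was not called.

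The kinases that shut pyruvate dehydrogenase moved apart. PDK1, the classic HIF target among them, stood at 599, 594, 592 and 652 normalized counts under pyrimethamine, 911, 841, 936 and 893 under mitoxantrone and 755, 671, 739 and 639 in the control. Mitoxantrone was above both other groups (0.36 ± 0.0679, limma adjusted p = 8.89e-05), while pyrimethamine overlapped the control (-0.20 ± 0.0679, limma adjusted p = 0.0169). The pyrimethamine call was lost without control replicate 1 (adjusted p = 0.0672) or 3 (0.0565) and under quantile normalization (0.0517). PDK3 was lower under mitoxantrone (-0.19, or -0.29 at the same total) with overlapping groups, and not called under pyrimethamine (0.13). Some alternatives called PDK3 higher under pyrimethamine, among them quantile normalization (0.16, limma adjusted p = 0.0276) and only the 8 libraries compared (limma adjusted p = 0.0456).

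**Figure D3:**
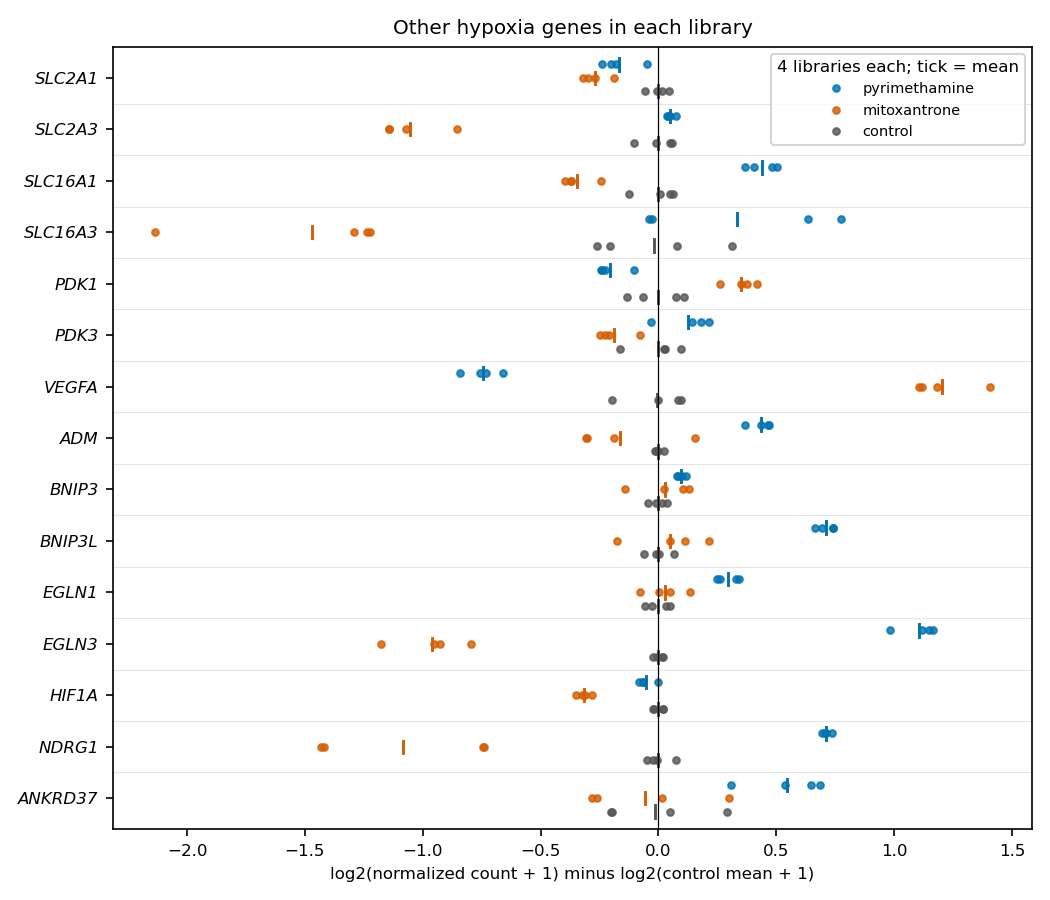
The 15 other hypoxia genes tested. Each point is 1 library (pyrimethamine, mitoxantrone and control, 4 each) at its log2(normalized count + 1) relative to the control mean, with ticks at group means; EGLN3, NDRG1 and SLC16A1 of the drugs lie on opposite sides of 0, as do VEGFA and PDK1.

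**Figure D4:**
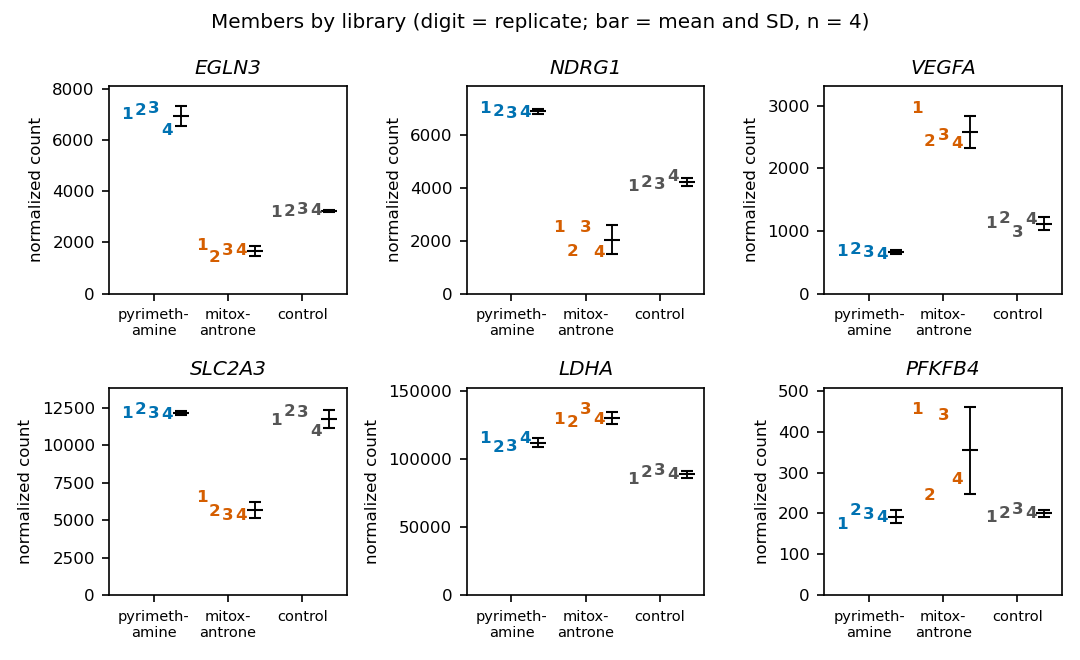
Normalized counts of 6 genes in every library, with digits for the replicate and bars for the mean and SD (n = 4). EGLN3 and NDRG1 are highest under pyrimethamine, VEGFA, LDHA and PFKFB4 under mitoxantrone, and SLC2A3 is lowest under mitoxantrone.

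Mitoxantrone libraries held more of most enzymes and less of most other hypoxia genes than pyrimethamine libraries. Against pyrimethamine, mitoxantrone had 14 of 19 enzymes higher, 1 (ALDOC) lower and 4 (HK2, TPI1, PGK1 and PGAM1) not called, and 2 of 15 other hypoxia genes higher, 12 lower and 1 (BNIP3) not called. Of all genes tested, 36.9% were higher and 39.5% lower. The median log2 change was 0.21 for the enzymes, -0.60 for the other hypoxia genes and -0.024 for all genes. Under quantile normalization 11 enzymes were higher and 4 lower, with the calls of HK1, GPI and PFKP lost and GAPDH at 0.64 in place of 0.33. Among the lower genes EGLN3 differed most, 4.19-fold lower under mitoxantrone (-2.07 ± 0.0593, limma adjusted p = 7.74e-18), followed by SLC16A3 (-1.81) and NDRG1 (-1.80). VEGFA was 3.86-fold higher under mitoxantrone, with 1.95 ± 0.0718 (limma adjusted p = 3.87e-16). Among the enzymes PFKFB4 (0.83), PFKM (0.64) and ENO1 (0.50) differed most. The call for SLC2A1 (-0.10) was lost without pyrimethamine replicate 1 (-0.063, limma adjusted p = 0.160), without mitoxantrone replicate 3 or 4, and in edgeR (0.0591), among 7 alternatives, while that of ANKRD37 (-0.60) was lost under quantile normalization (-0.26). That of PKM (0.12) was lost without replicate 3 of either drug and with libraries rescaled to the same total (0.081).

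**Figure D5:**
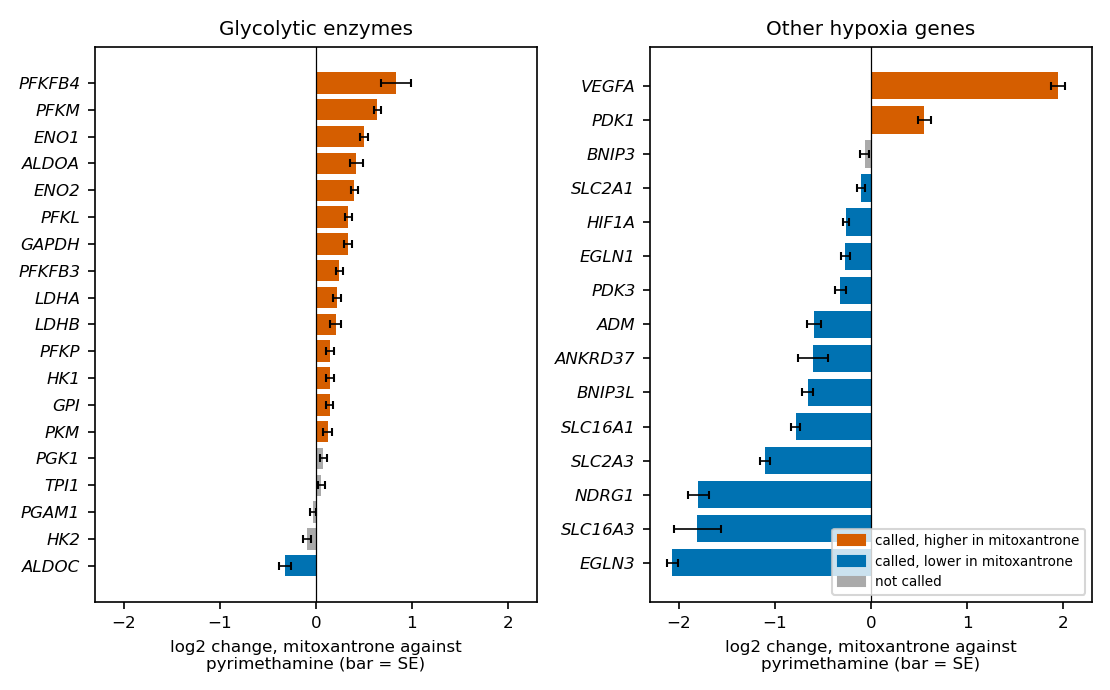
Log2 change of mitoxantrone against pyrimethamine for the 19 enzymes and 15 other hypoxia genes tested, with the standard error as a bar. Most enzymes lie right of 0 and most other hypoxia genes left of it, with VEGFA at 1.95 and EGLN3 at -2.07 as the extremes.

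Further genes of the pathway came from lists written down together with the members. Of 14 more glycolysis and gluconeogenesis genes tested, 3 were higher and 5 lower under pyrimethamine, and 4 higher and 7 lower under mitoxantrone. Called higher and lower over all were 26.4% and 26.9% of all genes under pyrimethamine and 33.5% and 35.8% under mitoxantrone, and the list's median log2 change was 0.052 under pyrimethamine and -0.057 under mitoxantrone, against 0.0018 and -0.0080 for all genes. PFKFB2, a relative of PFKFB3, fell with -0.39 under pyrimethamine and -0.85 under mitoxantrone. PCK2, the mitochondrial enzyme that makes phosphoenolpyruvate, fell with -0.52 under pyrimethamine and rose by 0.92 under mitoxantrone. BPGM, which makes 2,3-bisphosphoglycerate, rose by 0.49 under pyrimethamine, as did FBP1, a gluconeogenic phosphatase at few counts, by 1.59, and TIGAR, a brake on glycolysis, by 0.29. HKDC1, a hexokinase relative, fell to 218 ± 90.3 normalized counts under mitoxantrone, against 677 ± 55.4 in the control, with -1.73. ENO3 and G6PC3 rose under mitoxantrone by 0.44 and 0.24. LDHD fell with -0.37 under pyrimethamine and -0.34 under mitoxantrone, calls that were each lost when control replicate 4 was left out (limma adjusted p = 0.0771 and 0.0853).

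Genes of pyruvate entry into mitochondria were higher in 3 of 12 cases and lower in 4 under pyrimethamine, and higher in 8 and lower in 2 under mitoxantrone. For comparison, higher and lower were 26.4% and 26.9% of all genes under pyrimethamine and 33.5% and 35.8% under mitoxantrone, and the list's median was -0.073 under pyrimethamine and 0.24 under mitoxantrone. The pyruvate dehydrogenase subunit genes DLD and DLAT fell under pyrimethamine with -0.26 and -0.20. Under mitoxantrone DLD rose by 0.42, DLAT by 0.37 and PDHA1, the subunit that PDK kinases phosphorylate, by 0.44. PDK2 and PDP1, a kinase and a phosphatase of the complex, rose under pyrimethamine by 0.47 and 0.34, and PDP1 fell under mitoxantrone with -0.14, as did PDPR with -0.44. Of the pyruvate carrier subunits, MPC2 rose by 0.47 under pyrimethamine and MPC1 fell with -0.22.

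Of 9 further genes of glucose and lactate transport, 6 were higher and 3 lower under pyrimethamine, and 4 higher and 3 lower under mitoxantrone. Against these counts stood 26.4% and 26.9% of all genes under pyrimethamine and 33.5% and 35.8% under mitoxantrone, and the median of the 9 was 0.22 under pyrimethamine and -0.0034 under mitoxantrone. TXNIP, an arrestin that draws glucose transporters off the cell surface and whose transcript rises with glucose phosphates, stood at 17209 ± 422 normalized counts under pyrimethamine, 5475 ± 286 under mitoxantrone and 2553 ± 200.4 in the control (SD, n = 4 each). Its log2 change was 2.76 for pyrimethamine and 1.10 for mitoxantrone. ARRDC4, its close relative, rose by 1.97 under pyrimethamine, and BSG, the chaperone of the lactate transporters, by 0.32. SLC2A8, an intracellular glucose transporter gene, changed by -0.39 under pyrimethamine and 0.69 under mitoxantrone, and EMB fell under pyrimethamine with -0.18. Under mitoxantrone SLC2A12 fell with -0.68, MLXIP, the glucose-sensing factor that drives TXNIP, with -0.21, and SLC2A6 with -0.16, the last a call lost without mitoxantrone replicate 4 or control replicate 2 or 4. SLC2A4, at few counts, rose by 0.84.

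Of 13 genes of the oxygen sensing machinery, 5 were higher and 3 lower under pyrimethamine, and 4 higher and 5 lower under mitoxantrone. Over the whole table, higher and lower were 26.4% and 26.9% of all genes under pyrimethamine and 33.5% and 35.8% under mitoxantrone, and the median of the 13 was 0.085 under pyrimethamine and -0.041 under mitoxantrone. CITED2, which competes with HIF for its coactivator and is itself a HIF target, stood at 8537 ± 206 normalized counts under pyrimethamine, 527 ± 23.2 under mitoxantrone and 3515 ± 151 in the control (SD, n = 4 each). Its log2 change was 1.28 for pyrimethamine and -2.73 for mitoxantrone. EPAS1, encoding HIF-2 alpha, changed by 0.88 under pyrimethamine and -2.70 under mitoxantrone, and ARNT2, a partner subunit, by 0.55 and -1.66. ARNT, CUL2 and SIAH2 fell under pyrimethamine with -0.42, -0.27 and -0.43. VHL, which marks hydroxylated HIF for destruction, rose under mitoxantrone by 0.91, and so did SIAH2 by 0.33 and SIAH1 by 0.30, ligases that destroy EGLN proteins.

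Of 31 further HIF target genes tested, 11 were higher and 8 lower under pyrimethamine, and 11 higher and 14 lower under mitoxantrone. The calls over the table came to 26.4% and 26.9% of all genes under pyrimethamine and 33.5% and 35.8% under mitoxantrone, and the median of the 31 was 0.044 under pyrimethamine and -0.074 under mitoxantrone. DDIT4, an inhibitor of mTORC1 that also answers to ATF4 and p53, stood at 1199.7 ± 58.8 normalized counts under pyrimethamine, 10457 ± 2218 under mitoxantrone and 2646 ± 100.2 in the control (SD, n = 4 each). Its log2 change was -1.14 for pyrimethamine and 1.96 for mitoxantrone. The collagen prolyl hydroxylase genes P4HA1 and P4HA2 fell under pyrimethamine with -0.46 and -0.41, and P4HA2 fell under mitoxantrone with -1.07. IGFBP3 and ANGPTL4, both secreted, rose under pyrimethamine by 0.71 and 0.58. Under mitoxantrone the matrix cross-linking enzyme gene LOXL2 fell with -2.33 and TMEM45A with -0.97. KDM4C, a histone demethylase gene, and GBE1, the glycogen branching enzyme gene, rose under mitoxantrone by 0.88 and 0.50.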

How the data were processed

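The deposited values are a normalized signal for every gene in every library: reads that the authors scaled with a single factor for each library. The submitters' processing notes list featureCounts 1.5.1, STAR 2.6.90c, FastQC 0.11.5 and cutadapt 1.12, with hg38 and mm10 as builds; all gene identifiers are human, and the strand setting and annotation are not given in the sources used here. Multiplied by that factor, 100% of values came within 0.01 of whole reads. Group means of log2(value + 1) were compared with limma 3.58.1 (R 4.3.3, variance trend) in a single fit of 12 libraries, with no covariate, adjusted by Benjamini-Hochberg over 16950 genes. Changes of low genes are understated by the added 1. edgeR 4.0.16 and DESeq2 1.42.0 on the recovered whole reads, other pseudocounts, filters and scalings, a replicate block, a fit without the variance trend, only the 8 libraries compared and each library left out were alternatives. Ratios of gene pairs were compared by two-sided exact permutation tests. The fits were checked on simulated data with known changes, in which few genes changed and all groups had the same spread. These data differ from that setting, so the check does not vouch for the calls given here. Coordinates and exon lengths are from GENCODE 29 on GRCh38, which may differ from the authors' annotation, and promoters from RefSeq. The members, pairs and lists were chosen with earlier results of these data known. All members are named or counted; of each further list, up to 3 called genes with the largest rise and 3 with the largest fall, where the higher group averaged 50 normalized counts or more, are named for each drug, except 1 gene that is not reported here.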

Additional observations from a re-analysis of the deposited data

Results flagged for a closer look

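Each gene tested was checked in each group of 4 libraries for a library far from the other 3, and 7 of 102 groups held one by Dixon's limit, where chance gives about 1 in 20. Among the enzymes, GAPDH in mitoxantrone replicate 3 stood at 297881 normalized counts, against 285000 to 285883 in the other 3 libraries. ENO2 in pyrimethamine replicate 1 stood at 4113 normalized counts, against 3880.1 to 3908 in the other 3 libraries. PFKM in control replicate 4 stood at 12119 normalized counts, against 11605 to 11663 in the other 3 libraries, and PGK1 in control replicate 1 at 41734 normalized counts, against 44543 to 44973 in the other 3 libraries. Among the other hypoxia genes, SLC16A3 in mitoxantrone replicate 4 stood at 17.9 normalized counts, against 33.1 to 34.6 in the other 3 libraries. SLC16A1 in mitoxantrone replicate 2 stood at 10989 normalized counts, against 9899 to 10071 in the other 3 libraries, and PDK1 in pyrimethamine replicate 4 at 652 normalized counts, against 592 to 599 in the other 3 libraries. The last of these lay within the control range of PDK1.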

How the results depend on the processing

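Over 23 alternatives, 19 of 22 calls of members held throughout for pyrimethamine against the control, 22 of 27 for mitoxantrone against the control and 23 of 29 between the drugs. Members not called were less stable, and stayed so throughout in 7 of 12, 3 of 7 and 0 of 5 cases, in the same order. Quantile normalization turned 4 values: PKM under pyrimethamine to -0.037, TPI1 under mitoxantrone to -0.14 against the control and -0.14 against pyrimethamine, and PGAM1, not called otherwise, to -0.22 under mitoxantrone. It also gave 6 enzymes lower for mitoxantrone against the control, in place of 3, and 4 lower between the drugs, in place of 1. Rescaling to the same total gave 2 enzymes lower between the drugs, and leaving out single libraries gave 1 to 2. The cause was not tested. Same-numbered libraries did not deviate together (correlations of -0.013 to 0.029), and differently numbered ones gave -0.0745 to 0.0446. The values thus show no pairing by number, and the labels do not say how the replicates were made. With the replicate number as a block, 2 enzymes were lower between the drugs, since HK2 was called as well (adjusted p = 0.0484), PFKL was called higher under mitoxantrone (0.0484), and no other call of a member changed. CA9 and CA12 were too low to test, and depth limits any statement on them.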

Other observations

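The mitoxantrone libraries differed among themselves more than those of the other groups for several members, though not for all. The coefficient of variation of NDRG1 was 26.8% under mitoxantrone, against 1.29% under pyrimethamine and 3.67% in the control. That of PFKFB4 was 30.2% under mitoxantrone, against 7.99% under pyrimethamine and 4.27% in the control, and that of ADM was 15.9% under mitoxantrone. For SLC16A3 it was 29.6% under pyrimethamine and 26.9% under mitoxantrone. For PDK1 it was 7.87% in the control and 4.49% under mitoxantrone. Replicate 1 was the highest mitoxantrone library for ADM, with 2360.1 normalized counts against 1722, 1862 and 1713 in replicates 2, 3 and 4. Replicates 1 and 3 were the higher ones for NDRG1, PFKFB4, BNIP3 and BNIP3L, as the values by library show for NDRG1, PFKFB4 and BNIP3L. HIF1A itself had a coefficient of variation of 1.97% in the mitoxantrone group. The abundant enzymes GAPDH, PKM, ENO1 and LDHA varied by 2.16% to 3.69% in the same libraries.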
